A study of Rattus norvegicus with 12 samples.

Results

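Lungs exposed to cigarette smoke (CS) and lipopolysaccharide (LPS) were compared, all together, with lungs of unexposed rats. The exposed lungs were the 9 of 12 samples whose treatment label begins with CS+LPS, namely 3 labelled CS+LPS, 3 labelled CS+LPS+PPG and 3 labelled CS+LPS+NaHS, and the 3 samples labelled Control were the comparison. All came from male Sprague–Dawley rats of 8 to 12 weeks. The exposed rats breathed smoke on days 1 to 4, 6 to 18 and 20 to 30, 2 times a day for 1.5 h, and LPS was instilled into the trachea on days 5 and 19. NaHS, a salt that releases hydrogen sulfide (H2S), or PPG (propargylglycine), which blocks the H2S-forming enzyme CTH, was given intraperitoneally 2 h before each exposure in 1 group each, and control rats breathed air and were given saline. RNA of the left upper lobe was taken 24 h after the last smoke, so the data describe whole tissue at 1 time point. The comparison asks which part of the response to smoke and LPS is present whatever was done to H2S.

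Cigarette smoke carries polycyclic aromatic hydrocarbons, which bind the aryl hydrocarbon receptor in epithelial and endothelial cells and switch on detoxifying enzymes together with the receptor's own repressor. LPS, a component of the outer membrane of Gram-negative bacteria, is sensed by Toll-like receptor 4 and its partner MD-2 on macrophages, and the signal passes through NF-kappaB to chemokines and adhesion molecules that bring neutrophils and monocytes from the blood. With repeated smoke the airspaces fill with pigmented, lipid-laden macrophages.

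Lung RNA was hybridised in a single colour to 1 rat array per sample, and each value below is a normalised signal on the log2 scale, so that a difference of 1 is a 2-fold change. Before normalisation, the 75th percentile of the processed signal was 2110 to 3261 on 11 arrays and 1229 on control replicate 3. Control replicate 3 also correlated least with the others (Pearson's r across probes 0.936 to 0.957), whereas the median r of each other array was at least 0.982. The arrays lay on 2 slides. Slide 2 held control replicate 3 and the 3 CS+LPS arrays, and slide 1 held control replicates 1 and 2 with all CS+LPS+NaHS and CS+LPS+PPG arrays. The lung markers Sftpc (surfactant protein C) and Scgb1a1 (club cell secretory protein) were well above background on all 12 arrays. Markers of fat and heart muscle differed between arrays. Over 9 detected fat cell markers the median member lay 3.08 above the control mean on control replicate 3 and 1.55 and 1.53 below it on the other controls, and over 11 detected heart muscle markers the same values were 2.83, -1.23 and -1.42. Summed fat cell signals ran from 5103 to 41460 in control and from 6554 to 18160 in exposed lungs, and summed heart muscle signals from 7013 to 100200 and from 11650 to 78230. The labels number the arrays as replicates without naming animals, so p-values measure the spread between these samples, part of which may be technical.

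Of 30367 rat probes, 21239 were detected and tested, and they carried 11331 gene symbols. By the rule of the methods, a 2-fold change or more with an unadjusted p below 0.05, here with limma's p, 325 probes (1.53% of those tested) were higher in the 9 exposed lungs and 355 (1.67%) were lower. With the p of the methods' t-test 309 were higher among 618. The share of higher calls was 47.8% here, 62.4% after quantile normalization and 36.4% after normexp background correction, which moved the median difference of all probes from -0.02 to -0.11. By limma with Benjamini-Hochberg adjustment at 0.05 without a fold rule, 773 probes (3.64%) rose and 410 (1.93%) fell. Rises were 65.3% of these calls, 48.8% after normexp background correction and 32.7% within slide 2 alone. All 1183 of these had 1 direction in the 3 exposed groups, 1181 had the same direction within both slides, and in 964 the 9 exposed arrays did not overlap the 3 control arrays. Selection by the pooled difference on the same arrays largely sets these counts. Over all probes tested, the exposed arrays lay wholly above the control arrays in 1271 (5.98%) and wholly below in 744 (3.5%). The number past the adjusted p moved with single arrays, from 374 without control replicate 3 to 2687 without control replicate 2, and was 478 without control replicate 1. The number by the rule of the methods was 444 without control replicate 3, 1357 without control replicate 2 and 1166 without control replicate 1. With slide as a block, 6092 probes passed the adjusted p in the model of 4 groups and 1789 with the exposed lungs as 1 group. Within slide 1 alone 522 passed, and within slide 2 alone, whose lone control was assumed to vary like the other groups, 3880.

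A probe was taken as held when its adjusted p was under 0.05 and its difference from control had 1 sign and a size of at least 1 in each of the 3 exposed groups, within slide 1 (6 exposed and 2 control arrays) and within slide 2 (3 exposed and 1 control array). This left 109 probes, of which 70 (0.33%) were higher and 39 (0.184%) were lower, with 85 gene symbols. In 98 of them the exposed and control arrays did not overlap, which the rule favours. The 3 groups share the same control arrays, so holding in all of them is less than 3 separate observations. The median size of the difference over the 109 probes was 1.502 in CS+LPS, 1.44 with added NaHS and 1.67 with added PPG. It was 1.32 within slide 1 and 1.92 within slide 2, and 86 of the 109 were larger on slide 2, whose only control is control replicate 3. When control replicate 3 was left out, all 109 kept their direction, 102 kept a size of at least 1 and 54 kept an adjusted p under 0.05. Direction and size were here largely set by the rule, which already asked for a size of at least 1 against control replicates 1 and 2 within slide 1. After normexp background correction 104 of the 109 kept their direction, 52 a size of at least 1 and 74 the adjusted p. Only 63 of the 109 were well above background on all 12 arrays. Just inside the size limit were Mnda, Msr1 and Mtarc1, with smallest sizes of 1.01 each, and just outside were Kynu (0.99), Or10j7 (0.99) and Cd79b (0.99).

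**Figure D1:**
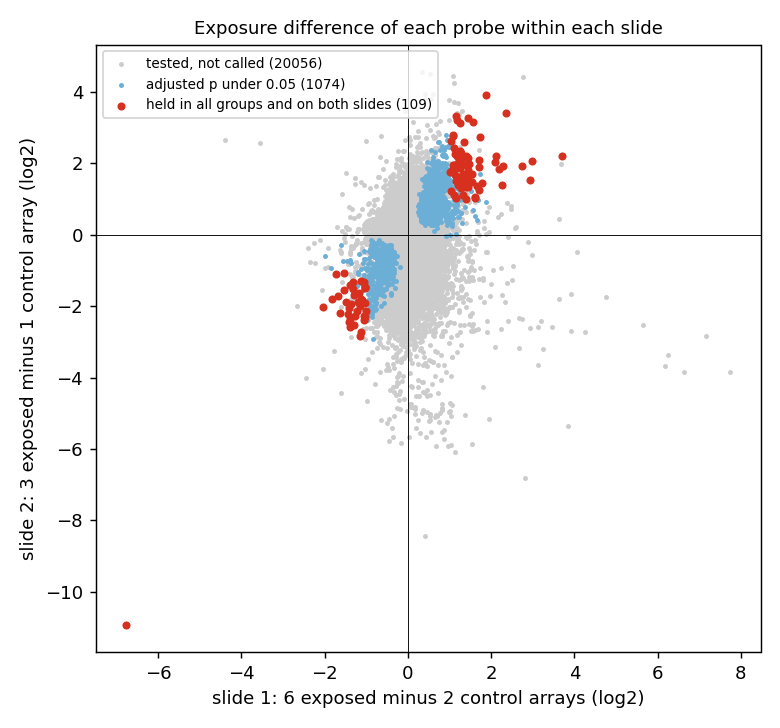
Difference between exposed and control arrays for each of the 21239 probes, within slide 1 (x axis, 6 exposed minus 2 control arrays) and within slide 2 (y axis, 3 exposed minus 1 control array), in log2 units. Grey points were not called, the blue points passed the adjusted p only, and the 109 red points were held; the red point near -6.77 and -10.92 is a probe of the class II gene RT1-Bb.

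Among the held genes, 44 rises and 29 falls had a symbol, a level well above background on every array of the brighter group and no overlap, and the 12 rises and 12 falls whose smallest difference was largest are described here. The rises included receptors of macrophages, secreted defence proteins, an endothelial adhesion molecule and a repressor of the aryl hydrocarbon receptor. Trem2, a lipid-sensing receptor of macrophages, measured 10.58, 10.81 and 11.16 in the 3 controls and 12.42 to 13.63 in exposed lungs (median 12.93). The lowest exposed lung thus lay above the highest control, and the rise was 2.08 ± 0.19 (SE, limma adjusted p = 0.00236), or 4.22-fold. Clec5a, a myeloid receptor for viral glycans, measured 4.999, 5.03 and 3.13 in control and 6.03 to 6.96 in exposed lungs (median 6.44). Only 1 of the 3 control arrays was well above background, and the third control was the low one, so the difference was 1.44 within slide 1 and 3.28 within slide 2.

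Fcnb, a ficolin stored in the granules of maturing neutrophils, measured 8.50, 10.06 and 8.32 in control and 10.60 to 12.97 in exposed lungs (median 11.67). Every exposed lung exceeded every control, by 2.71 ± 0.49 on average (adjusted p = 0.0209), a 6.55-fold change with 2.76 in CS+LPS, 2.76 with added NaHS and 2.61 with added PPG. Defb5, an epithelial beta-defensin, rose by 2.07 ± 0.32 (adjusted p = 0.0165), from 6.85 to 7.36 in control to 8.10 to 10.03 in exposed lungs. Fgg, the fibrinogen gamma chain and an acute-phase protein, was steady in exposed lungs at 12.44 to 12.95, whereas the controls measured 11.37, 11.61 and 9.30. The rise of Fgg was therefore 1.17 within slide 1 and 3.32 within slide 2. Rnase2, of the eosinophil-associated ribonucleases, was not well above background on any control array. With control signals below the lowest signal well above background raised to it, Rnase2 was 3.29-fold higher in exposed lungs (limma adjusted p = 0.0409, signals as measured). The family of Rnase2 holds close copies, which a probe may not tell apart.

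Sele, the E-selectin of activated endothelium that slows passing leukocytes, was not well above background in control (4.67, 4.99 and 4.64) and measured 6.01 to 7.53 in exposed lungs (median 7.02). The groups did not overlap, and the rise was 4.47-fold (adjusted p = 0.00700). After normexp background correction it was 0.70 on the log2 scale (adjusted p = 0.0535). With low control signals raised as for Rnase2, Slc26a4 (pendrin, an anion exchanger of airway epithelium) was 4.87-fold higher (adjusted p = 0.0209). Gtsf1 (a cofactor of piRNA silencing) was 6.28-fold higher (adjusted p = 0.0475) and Pdzrn4 2.98-fold (adjusted p = 0.0108). None of the 3 was well above background in control. After normexp background correction their log2 differences were 0.61, 0.93 and 0.38, and none passed the adjusted p. Gtsf1 ranged from 4.73 to 8.75 among the exposed lungs. Nr5a2, a nuclear receptor, rose by 1.66 ± 0.37 (adjusted p = 0.0335), and its second probe by 2.06 (adjusted p = 0.0165). Only 1 control array was well above background for the first probe.

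Ahrr, the repressor of the aryl hydrocarbon receptor and a transcript known to follow smoke, measured 5.57, 6.04 and 6.74 in control and 7.36 to 8.41 in exposed lungs (median 8.20). The groups did not overlap and the rise was 1.97 ± 0.26 (adjusted p = 0.0102), or 3.93-fold, with 2.01 in CS+LPS, 2.14 with added NaHS and 1.77 with added PPG. The promoters below are shown because Ahrr and Cyp1b1 are both textbook targets of the receptor, of which the first passed the test and the second did not, and because Lcn2 and Ccl9 were held rises that NF-kappaB is known to control. They are the 250 bases before the transcription start in RefSeq (assembly GRCr8), written 5′ to 3′ along the gene, and were chosen after the values were seen. Capitals mark GCGTG, the core of the dioxin response element, on either strand in Ahrr (chr1:30821969-30822218, plus strand) and Cyp1b1 (chr6:21094315-21094564, plus strand), and a match to the NF-kappaB consensus in Lcn2 (chr3:36081781-36082030, minus strand) and Ccl9 (chr10:68868878-68869127, minus strand).
Ahrr: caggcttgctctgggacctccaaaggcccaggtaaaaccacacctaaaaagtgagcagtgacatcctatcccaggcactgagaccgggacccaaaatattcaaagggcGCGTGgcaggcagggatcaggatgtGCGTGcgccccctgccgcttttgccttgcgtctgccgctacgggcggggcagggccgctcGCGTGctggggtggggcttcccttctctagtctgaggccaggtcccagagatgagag
Cyp1b1: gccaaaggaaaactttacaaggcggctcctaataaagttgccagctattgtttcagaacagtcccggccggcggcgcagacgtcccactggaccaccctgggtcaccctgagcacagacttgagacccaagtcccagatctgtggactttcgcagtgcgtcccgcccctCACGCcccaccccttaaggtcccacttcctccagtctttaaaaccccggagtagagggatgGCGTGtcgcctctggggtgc
Lcn2: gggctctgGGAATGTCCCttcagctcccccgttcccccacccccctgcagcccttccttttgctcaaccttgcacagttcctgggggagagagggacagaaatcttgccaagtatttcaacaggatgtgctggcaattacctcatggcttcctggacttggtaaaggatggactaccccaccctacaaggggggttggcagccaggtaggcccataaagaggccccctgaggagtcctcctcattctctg
Ccl9: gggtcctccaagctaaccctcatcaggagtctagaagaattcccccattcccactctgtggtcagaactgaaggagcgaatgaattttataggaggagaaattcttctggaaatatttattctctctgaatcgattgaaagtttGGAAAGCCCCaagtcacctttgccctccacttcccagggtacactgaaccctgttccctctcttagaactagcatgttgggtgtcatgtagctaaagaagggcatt
Ahrr held 3 cores, ending 138, 113 and 53 bases before the start, and Cyp1b1 held 2, ending 77 and 16 bases before it. Nqo1 and Tiparp, further members of the receptor's list, held 1 core each. Among 33469 rat promoters of this length, 25.9% held at least 1 core and 6.33% held a match to the NF-kappaB consensus. Sele, also known to answer to NF-kappaB, held no match in this window.

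The other tested genes around the receptor gave no such rise. Of 7 detected members of the list, Ahrr alone passed the adjusted p, and the list median was -0.03. Cyp1a1, the enzyme most used as a readout of the receptor, measured 9.71, 8.54 and 9.77 in control and averaged 8.71 in exposed lungs, a difference of -0.63 (adjusted p = 0.172). Cyp1b1 differed by 0.25 (adjusted p = 0.428), Nqo1 by -0.03 (adjusted p = 0.909) and Tiparp by -0.02 (adjusted p = 0.932). Among 21 detected genes of the NRF2 and antioxidant list, 3 rose and none fell by limma at an adjusted p of 0.05, with a list median of 0.11. The metallothionein gene Mt1 rose by 0.73, the glutathione peroxidase Gpx1 by 0.67 and the peroxiredoxin Prdx1 by 0.63. Mt1 and Prdx1 lost the call without control replicate 3 and also without control replicate 1, and Gpx1 kept it. No member of the list of phase II and aldehyde enzymes passed (15 detected, median -0.00426).

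**Figure D2:**
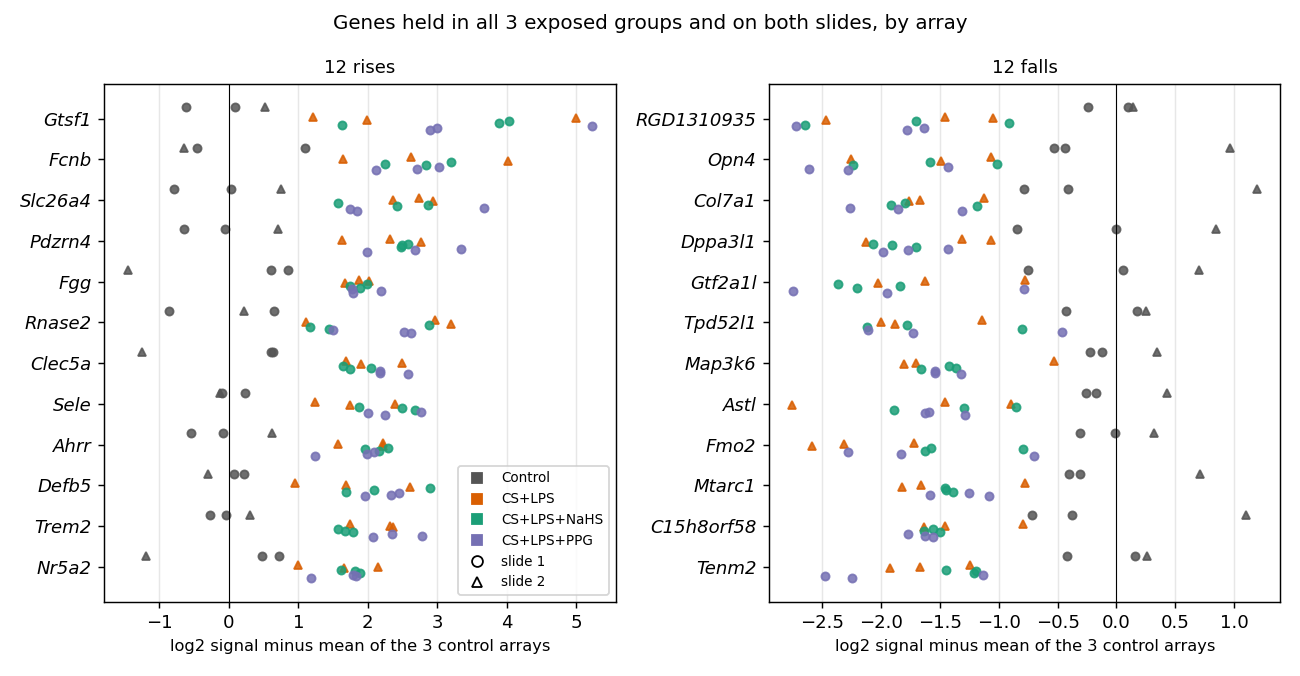
Signal of the 12 held rises (left) and 12 held falls (right) on each array, as log2 signal minus the mean of the 3 control arrays (x axis), with 1 row per gene. Colours give the group, circles slide 1 and triangles slide 2; in each row the grey control points lie on 1 side of all 9 exposed points, and in rows such as Fgg, Clec5a, Nr5a2, Col7a1 and C15h8orf58 the control triangle (control replicate 3) lies apart from the other controls.

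The 12 falls took in enzymes, a collagen, a kinase and several genes of no lung role known here. Fmo2, the main flavin-containing monooxygenase of lung, measured 15.80, 15.50 and 16.13 in control and 13.22 to 15.11 in exposed lungs (median 14.09), a fall of -1.71 ± 0.32 (adjusted p = 0.0228) that was -2.21 in CS+LPS, -1.33 with added NaHS and -1.60 with added PPG. A second probe of Fmo2 gave -1.17 (adjusted p = 0.0566). Map3k6, a stress-activated kinase, measured 13.58, 13.48 and 14.05 in control and 11.90 to 13.17 in exposed lungs (median 12.16). Its fall was -1.43 ± 0.24 (adjusted p = 0.0180), and CS+LPS replicate 1 lay closest to the controls. Mtarc1, a mitochondrial reductase, fell by 1.39 (adjusted p = 0.0228) and Tpd52l1 by 1.56 (adjusted p = 0.0399), the latter with falls of -1.47 (adjusted p = 0.0544) and -1.17 (adjusted p = 0.0473) by its other probes.

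Col7a1, the collagen of anchoring fibrils beneath epithelia, measured 8.29, 7.90 and 9.89 in control and 6.42 to 7.57 in exposed lungs (median 6.93). The groups did not overlap (-1.66 ± 0.37, adjusted p = 0.0349), and control replicate 3 was the highest, with -1.13 within slide 1 and -2.72 within slide 2. Opn4 (melanopsin, -1.78), Tenm2 (a teneurin adhesion protein, -1.62), Astl (an astacin-like protease, -1.52), Gtf2a1l (a germ-cell transcription factor, -1.81), Dppa3l1 (-1.71), RGD1310935 (-1.82) and C15h8orf58 (-1.51) fell with adjusted p-values from 0.0179 to 0.0358. Gtf2a1l and Astl were well above background on 4 of the 9 exposed arrays and Tenm2 on 6, so their falls end near the background.

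None of the 24 genes changed direction in an alternative that tested it. After normexp background correction 7 of the 24 lost the adjusted call, all of them rises near the background in control (Gtsf1, Slc26a4, Pdzrn4, Rnase2, Clec5a, Sele and Nr5a2), and the differences were 0.45 for Clec5a, 0.34 for Rnase2 and 0.21 for Nr5a2. Leaving out control replicate 3, 14 of the 24 lost the adjusted call (Gtsf1, Fcnb, Rnase2, Nr5a2 and all falls but C15h8orf58 and Tenm2), and without control replicate 1, 11 did (Gtsf1, Fcnb, Slc26a4, Rnase2, Nr5a2, RGD1310935, Opn4, Col7a1, Tpd52l1, Astl and Fmo2). The differences themselves then ran from 0.96 to 3.47 in size without control replicate 3. Their direction and much of this size were set by the held rule.

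**Figure D3:**
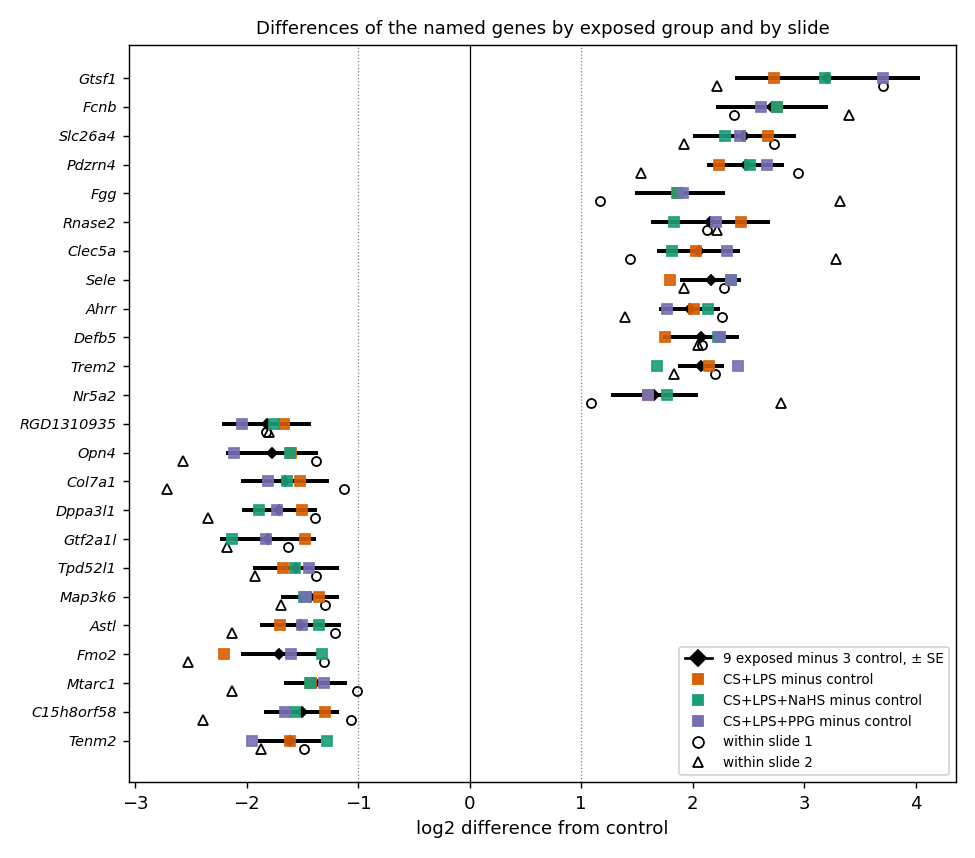
Difference from control (x axis, log2) for the 24 named held genes, 1 row per gene. Diamonds with bars show all 9 exposed arrays against the 3 controls with the standard error, coloured squares the 3 exposed groups, and open symbols the differences within slide 1 (circle) and slide 2 (triangle); every symbol lies beyond the dotted lines at a size of 1.

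Further held rises, picked from the rest after their values were seen, included genes of monocytes and macrophages. Ccr2, the chemokine receptor that brings monocytes out of the blood, rose by 1.37 (adjusted p = 0.0128), with 1.14 in CS+LPS, 1.36 with added NaHS and 1.59 with added PPG. Hk3, a hexokinase of myeloid cells, rose by 1.64 (adjusted p = 0.00236), Tfec, a macrophage transcription factor, by 1.57 (adjusted p = 0.00242), and Slamf8 by 1.27 (adjusted p = 0.00700). The Toll-like receptor homologue Cd180 rose by 1.65 (adjusted p = 0.0232) and its partner Ly86 by 1.28 (adjusted p = 0.0128). The control means of Tfec (4.35) and Cd180 (4.94) were near those of Clec5a and Nr5a2, whose rises shrank after normexp background correction. Among the falls were Kl (klotho, -1.38, adjusted p = 0.0128) and Sik1, a kinase induced by cAMP (-1.33, adjusted p = 0.0218).

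The 3 exposed groups were then compared with each other. The limma F test found 119 of 21239 probes (0.56%) that differed among them at an adjusted p of 0.05, and 2404 at an unadjusted p of 0.05. With slide as a block 3861 passed, and 300 passed without control replicate 3. Of the 109 held probes, 0 passed the adjusted F test, and CS+LPS+PPG and CS+LPS+NaHS, which lie on 1 slide, differed in 7 of the 109 at an unadjusted p of 0.05, against 8.87% of all probes tested. Of the 1183 probes past the adjusted p against control, 1 passed the F test. A probe that misses this test is not shown to be equal in the groups. The held rule, which asks for 1 sign and a size of at least 1 in each group, itself selects against such differences. The counts among held probes therefore do not test whether these respond alike in the 3 groups. CS+LPS lies on the other slide from NaHS and PPG, and control replicate 3 is the only control beside it, so its difference from the other exposed groups can be separated from slide only through that array. Slc13a3, a carboxylate transporter singled out after its values were seen, was not well above background on any control array and was so on 8 of the 9 exposed arrays. It measured 6.50, 6.77 and 5.64 in CS+LPS, 4.43, 5.35 and 4.89 with added NaHS and 8.50, 6.61 and 7.79 with added PPG.

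Gene lists were read next, each by the most intense detected probe of a gene, against a background of 11331 genes of which 4.51% rose and 2.44% fell. Of 18 detected macrophage transcripts, 8 rose and none fell at an adjusted p of 0.05 (limma), and the median was 1.06, against 0.0001 over all genes. Fabp5, a fatty acid carrier, measured 14.52, 14.93 and 13.57 in control and 15.61 to 16.08 in exposed lungs (median 15.96), a rise of 1.57 ± 0.22. Cd68, the lysosomal glycoprotein of macrophages, went from 12.44, 12.67 and 11.83 to a range of 13.35 to 14.09, a rise of 1.39 ± 0.20. Neither gene overlapped between exposed and control lungs, and both were held. Gpnmb, a glycoprotein of lipid-laden macrophages, rose by 1.31, the scavenger receptor Msr1 by 1.25, the elastase Mmp12 by 1.22, Adgre1 (F4/80) by 1.14 and Siglec1 by 0.95. Not every member went this way, since the haemoglobin scavenger receptor Cd163 differed by -1.07 (adjusted p = 0.153) and lysozyme, Lyz2, by -0.40 (adjusted p = 0.190). The summed signal of the list overlapped, at 210200 to 350700 in control and 258900 to 330100 in exposed lungs. In whole tissue, more cells of a type and more RNA per cell cannot be told apart. The list median was 0.91 within slide 1 and 1.35 within slide 2, and without control replicate 3 it was 0.98 with 3 members past the adjusted p.

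Neutrophil transcripts had a median of 0.99 over 17 detected members, of which 16 had positive differences, 3 rose and none fell at the adjusted p. They were Fcnb, Lcn2 and Cxcr1. After normexp background correction the list median was 0.407. Lcn2 (lipocalin 2, which binds bacterial siderophores) measured 12.31, 12.19 and 12.46 in control and 13.44 to 14.52 in exposed lungs (median 13.85). The controls were close together and the rise was 1.56 ± 0.16 (adjusted p = 0.00338), in contrast to Cxcr1, a receptor for CXC chemokines, where controls of 10.11, 9.72 and 8.51 gave a rise of 1.42 ± 0.28 (adjusted p = 0.0235). The alarmins S100a8 (1.03, adjusted p = 0.106) and S100a9 (0.99, adjusted p = 0.0830), which are abundant in neutrophils, overlapped between exposed and control lungs.

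**Figure D4:**
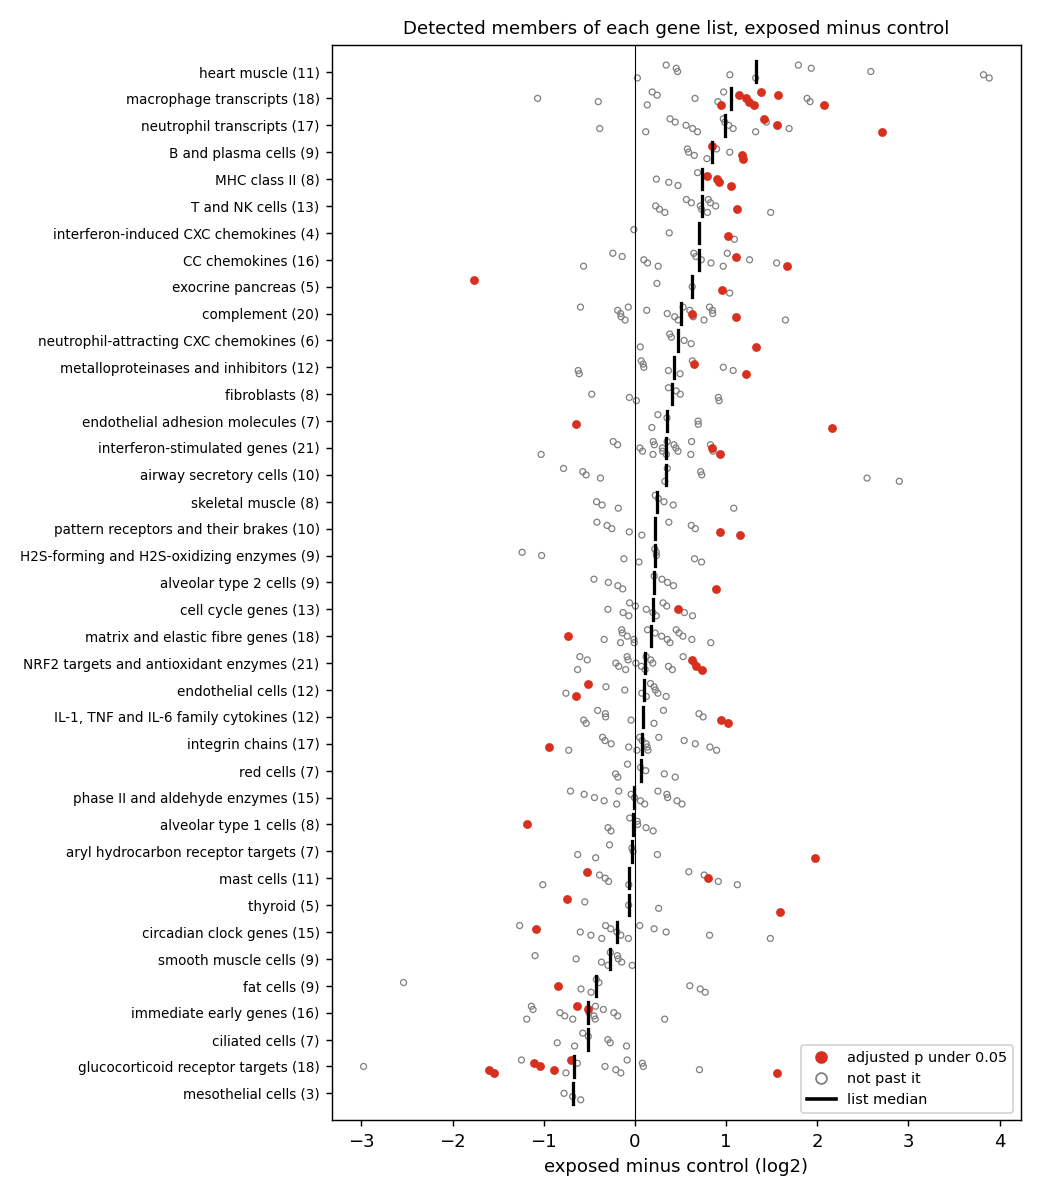
Difference between exposed and control lungs (x axis, log2) for each detected member of the 39 gene lists, with the number of members in brackets. Red points passed an adjusted p of 0.05, open points did not, and black bars are list medians, which ran from -0.68 (mesothelial cells) to 1.33 (heart muscle, no member past the test).

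Among ligands, Cxcl3, a neutrophil-attracting chemokine, rose by 1.33 (adjusted p = 0.0228), and the other 5 detected members of its list had positive differences without passing. Its rise was 2.09 in CS+LPS, 0.53 with added NaHS and 1.39 with added PPG, so it was not held, and it lost the adjusted call without control replicate 3. The CC chemokines had 2 rises and no fall among 16 detected members. Ccl9, a macrophage product, measured 9.91, 10.21 and 9.76 in control and 10.97 to 12.62 in exposed lungs (median 11.47), and its rise of 1.67 ± 0.24 (adjusted p = 0.0128) was held. Ccl6 rose by 1.11 (adjusted p = 0.0449). Cxcl10, an interferon-induced chemokine, rose by 1.02 (adjusted p = 0.0472), with 0.55 in CS+LPS, 0.61 with added NaHS and 1.90 with added PPG. Its groups overlapped, and the adjusted p was 0.130 without control replicate 3. Its list's other named member, Cxcl16, differed by -0.01 (adjusted p = 0.951). Of the cytokine list 2 of 12 detected members rose and none fell, Il1rn, the interleukin-1 receptor antagonist, by 1.02 ± 0.17 and Il18 by 0.95 ± 0.16 (both adjusted p = 0.0180). Il1b differed by 0.31 (adjusted p = 0.356) and Tnf by 0.75 (adjusted p = 0.0576). The 2 probes of Il1a did not give 1 answer. The probe of higher signal differed by -0.53 (adjusted p = 0.219), and the other, held and singled out after its values were seen, fell from 10.01, 9.93 and 11.14 in control to a mean of 8.93 (-1.43, adjusted p = 0.0254).

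Among receptors and sensors, Tlr7 rose by 1.15 and Ly96 (MD-2) by 0.94 (both adjusted p = 0.0228), 2 of 10 detected members, with a list median of 0.22. Of 20 detected complement genes, Cfp (properdin) rose by 1.11 and C1qa by 0.63 and none fell, with a median of 0.50. Of 21 detected interferon-stimulated genes, the guanylate-binding proteins Gbp5 (0.93) and Gbp2 (0.85) rose and none fell, with a median of 0.35. The median of the interferon list was 0.11 in CS+LPS, 0.17 with added NaHS and 0.78 with added PPG. With control replicate 3 left out, 1 complement gene, 1 interferon-stimulated gene and 1 CC chemokine passed, and the cytokine and receptor lists still held 2 rises each.

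Genes of antigen presentation and of lymphocytes followed. All 8 detected MHC class II genes had positive differences and 4 rose, RT1-DMa (1.05), RT1-Bb (0.92), RT1-Da (0.90) and RT1-DMb (0.80), with a median of 0.74. The summed signal of the list was 89040 to 139700 in control and 159100 to 226300 in exposed lungs. The median was 0.52 without control replicate 3, with 1 member past the adjusted p. B cell genes had a median of 0.84 with 3 rises and no fall among 9 detected members. Cd79b, of the B cell receptor, rose by 1.18 (adjusted p = 0.0235), Ms4a1 (CD20) by 1.18 (adjusted p = 0.0167) and the adaptor Blnk by 0.84 (adjusted p = 0.0296). Their median was 0.84 also without control replicate 3, with 1 member past the adjusted p. Of 13 detected T and NK cell genes, all had positive differences and Nkg7, of cytotoxic granules, rose (1.12, adjusted p = 0.0437). The T and NK cell median was 0.73, or 0.29 without control replicate 3, and after normexp background correction 11 of the 13 stayed positive. Single controls moved these counts. Leaving out control replicates 1, 2 and 3 in turn, the rises numbered 6, 9 and 3 for macrophages, 2, 6 and 3 for neutrophils, 1, 6 and 1 both for MHC class II and for B cells, and 0, 8 and 0 for T and NK cells.

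A second RT1-Bb probe, singled out after its values were seen, went the other way. It measured 13.75, 14.18 and 13.76 in control, 14.35 and 14.19 in CS+LPS+PPG replicates 1 and 2, and 2.64, 2.79 and 3.07 in CS+LPS. It was 2.87, 6.46 and 2.32 in CS+LPS+NaHS and 2.96 in CS+LPS+PPG replicate 3. So 5 arrays were bright and 7 dim, and CS+LPS+PPG had arrays of both kinds. The average difference of -8.16 (adjusted p = 0.0437) therefore describes no single array, and the first RT1-Bb probe rose by 0.92 with no overlap. RT1 genes have many alleles and close copies.

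Glucocorticoid receptor targets were the list with the most falls. Of 18 detected members, 6 fell and 1 rose (Lcn2, which other lists also hold), and the median was -0.66. Fkbp5, the co-chaperone that the receptor induces, measured 13.91, 13.14 and 13.18 in control and 10.79 to 12.80 in exposed lungs (median 11.98). All exposed lungs lay below all controls, by -1.54 ± 0.37 (adjusted p = 0.0403), and the difference was -1.54 within slide 1 and -1.55 within slide 2. Pdk4, the kinase that restrains pyruvate dehydrogenase, fell by 1.60 (adjusted p = 0.0290) and, like Fkbp5, was held. The feedback inhibitor Errfi1 (-1.11), Tsc22d3 (GILZ, -1.04), Klf15 (-0.89) and Klf9 (-0.70) fell less. Zbtb16 had the largest difference, from 9.46, 8.96 and 9.71 in control to a mean of 6.40, but it varied from 3.82 to 8.30 among exposed lungs and missed the adjusted p (0.0621). Nr3c1, the receptor itself, differed by 0.09 (adjusted p = 0.600). These calls turned on single controls. Leaving out control replicate 3, the median was -0.62 and 0 members passed the adjusted p as falls, and without control replicate 1 it was -0.74 with 1 fall. On slide 1 alone 5 fell.

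Immediate early and clock genes were read next. Of 16 detected immediate early genes 15 had negative differences, with a median of -0.51, and 2 fell, Jun (-0.64, adjusted p = 0.0469) and Fosl2 (-0.52, adjusted p = 0.0475), both within an overlap of exposed and control lungs. The median was -0.44 without control replicate 3, and neither passed. Among 15 detected clock genes Cry1, a repressor of the clock, fell by 1.08 (adjusted p = 0.0234). Its controls measured 10.93, 10.95 and 10.85 and the exposed lungs 9.39 to 10.49, and the call was lost without control replicate 3. In that setting 1 clock gene rose past the adjusted p and none fell. Nr1d1 differed by 1.49 and missed the threshold (adjusted p = 0.0651), and Dbp (0.82, adjusted p = 0.278) varied by 1.06 (SD) among the controls. Time of day at tissue collection was not given in the sources used here.

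**Figure D5:**
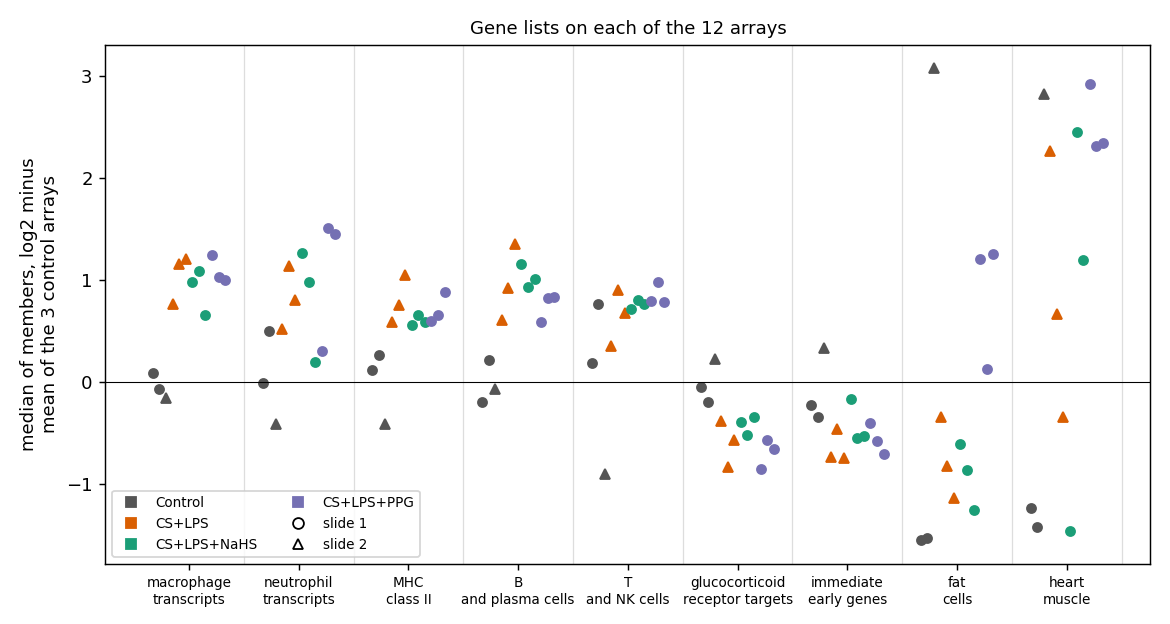
Median of the detected members of 9 gene lists on each array, as log2 signal minus the mean of the 3 control arrays (y axis). Circles are slide 1 and triangles slide 2; macrophage, MHC class II and B cell medians lie above all controls on all 9 exposed arrays and glucocorticoid target medians below, whereas fat cell and heart muscle medians split the controls by slide.

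Lists of the lung's structural cells held single called genes. Over all genes 4.51% rose and 2.44% fell, and calls this few are not read as changes of the lists. Endothelial Pecam1 (CD31) fell by 0.65 (adjusted p = 0.0228) without overlap, and the angiopoietin receptor Tek by 0.51 (adjusted p = 0.0470), 2 of 12 detected endothelial genes, with a median of 0.10. Pecam1 kept the call without control replicate 3 and Tek did not. Of 9 detected alveolar type 2 genes Lamp3 rose by 0.89 (adjusted p = 0.0165), whereas Sftpc (-0.45, adjusted p = 0.131) and Sftpb (-0.29, adjusted p = 0.157) did not pass. Igfbp2, of alveolar type 1 cells, fell by 1.18 (adjusted p = 0.0260). Its controls were 12.17, 11.86 and 13.24 against 11.03 to 11.56 in exposed lungs, so all exposed lungs were lower. No airway secretory or ciliated cell gene passed, with Scgb1a1 at -0.54 (adjusted p = 0.129), and neither did a smooth muscle, fibroblast or mesothelial gene. All 7 detected ciliated genes and all 9 detected smooth muscle genes had negative differences. In the absence of control replicate 3, 3 of the ciliated genes and 2 of the smooth muscle genes were positive.

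In the matrix and adhesion lists, too, single genes were called. Set beside the 4.51% of all genes that rose and the 2.44% that fell, these counts are not read as changes of the lists. The basement membrane collagen Col4a1 fell by 0.73 (adjusted p = 0.0231), with -0.58 in CS+LPS, -0.39 with added NaHS and -1.22 with added PPG. A second, dimmer probe of Col4a1 differed by -0.18 (adjusted p = 0.619). Col4a1 was the only gene called among 18 detected matrix genes, with Col1a2 at -0.14 (adjusted p = 0.523) and Col3a1 at -0.01 (adjusted p = 0.971). Itga6, an integrin chain that binds laminin, fell by 0.94 (adjusted p = 0.0265), 1 of 17 detected integrin genes. Timp1, an inhibitor of metalloproteinases, rose by 0.65 (adjusted p = 0.0424) beside Mmp12, 2 of 12 detected members of that list. Of 13 detected cell cycle genes Tyms, of thymidylate synthesis, rose by 0.48 (adjusted p = 0.0305). None of Col4a1, Itga6, Timp1, Mmp12 and Tyms passed without control replicate 3. No gene of the 9 that form or oxidise H2S passed the adjusted p. Cth differed by 0.04 (adjusted p = 0.944), Mpst by 0.22 (adjusted p = 0.457) and Cbs by -1.24 (adjusted p = 0.0618). By the rule of the methods 2 of the 9 fell and none rose, beside falls in 172 of all 11331 genes. Past the adjusted p, 1 member fell after normexp background correction and 1 with the exposed arrays as 1 group. Without control replicate 3 none passed.

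Markers of tissues that border the lung were read in the same way. Of 9 detected fat cell genes 1 fell, Lipe (-0.85, adjusted p = 0.0180), and of 11 detected heart muscle genes 0 passed the adjusted p. The fat cell median was 1.09 within slide 1 and -3.18 within slide 2, and the heart muscle median 2.98 and -2.36. Of 5 detected thyroid genes Pax8, a transcription factor also of other tissues, rose by 1.59 (adjusted p = 0.0128) and was held, and Tshr fell by 0.75 (adjusted p = 0.0483), while a second probe of Tshr differed by 0.00585 (adjusted p = 0.989). In the pancreas list Cel, a lipase, fell by 1.76 (adjusted p = 0.0298), with a signal of 8.29 on control replicate 3 and 6.90 and 6.45 on the others. Of 11 detected mast cell genes, with a median of -0.07, Cma1 rose by 0.80 (adjusted p = 0.0253) and Gata2 fell by 0.53 (adjusted p = 0.0448). Both overlapped between exposed and control lungs. In CS+LPS, with added NaHS and with added PPG, Cma1 differed by 1.02, 0.28 and 1.10. Gata2 differed by -0.88, -0.16 and -0.55 in the same order. Without control replicate 3, Lipe, Pax8 and Cma1 kept the adjusted call and the other named genes of these lists lost it. The fat cell list then had 2 rises and 1 fall past the adjusted p, with a median of 0.93. The heart muscle list then had 1 rise, with a median of 2.62. No red cell or skeletal muscle gene passed. The part of bordering tissue in the differences above was not tested.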

How the data were processed

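The authors scanned each of the 12 arrays and deposited the scanner output of Agilent Feature Extraction 10.7, whose processed signal is an intensity, linear and already corrected for background. The authors also deposited 5 lists of probes from GeneSpring 12.0. Their gene symbols were read, and their fold changes, p-values and 60 columns of normalized signal were not used.

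From the log2 processed signals the array's 75th percentile was subtracted and the mean of these percentiles added. Outlier spots were dropped and the spots of a probe averaged. A probe was tested when all 3 arrays of some group had it well above background. Of the rat probes, 17514 were named through RefSeq accessions (GRCr8 gene table, names only) and 194 through the lists, and 12659 stayed unnamed. A model of 4 group means was fitted in limma 3.58.1 (R 4.3.3), tested on simulated data, and the mean of the 3 exposed groups was contrasted with control, two-sided. Where no control array had a probe well above background, control signals under the lowest signal well above background on their array were raised to it for the fold. Such a fold depends on the background correction and is not a lower limit.

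Besides the 24 held genes, up to 4 members of each list past the adjusted p were named, or the 2 of highest signal where fewer than 2 passed, and other list members where a list's reading turned on them. The comparison, the 39 gene lists and the rules were chosen with earlier results of these data known. The alternatives were quantile normalization, another set of probes for the percentile, normexp on the median signal (offset 50), outlier spots kept, 3 other filters, the exposed arrays as 1 group, slide or replicate number as a block, a t-test, genes in place of probes, and each array left out in turn. Fits within slide 1 and slide 2 and list counts without control replicate 3 were added after seeing the data. The number of arrays limits the precision. Some genes that the naming rule selects are not reported here.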

Additional observations from a re-analysis of the deposited data

Results flagged for a closer look

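Dixon's ratio is the gap from the highest or lowest array to its nearest, over the whole range. It was taken on the 9 exposed arrays for all named genes, 74 past the adjusted p and 39 not. In 6 genes it exceeded the 95% critical value. Chance marks about 1 in 20 sets of arrays, which is about as many as were found. CS+LPS replicate 1 was the highest exposed array for Map3k6 (13.17, ratio 0.621), C15h8orf58 (13.13, ratio 0.676) and Actg2 (15.46, ratio 0.536). CS+LPS replicate 3 was the highest for RT1-DMb (12.98, ratio 0.571) and the lowest for Tshr (8.02, ratio 0.561), and CS+LPS+PPG replicate 3 was the lowest for Itga1 (14.21, ratio 0.535). For Map3k6 and C15h8orf58 the array that stood apart was the exposed array closest to control.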

How the results depend on the processing

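Against 680 probes by the rule of the methods, 1183 by adjusted p, 109 held and 119 by the F test, normexp background correction gave 280 by the rule, 42 held and 33 by the F test, and quantile normalization 42 by the F test. Testing probes well above background on at least 1 array gave 1199 and 724, no filter 1379, 554 and 67 by the F test, and probes well above background on all 12 arrays 68 held, where fewer probes were tested. Counting by gene gave 391, 787 and 73, where fewer features were tested. With slide as a block 6092 passed the adjusted p with 4 group means, with 3861 by the F test, and 1789 with 1 exposed group. Slide 1 only gave 522 by adjusted p, and slide 2 only 4841 by the rule and 3880 by adjusted p. Leaving out each array in turn gave 444 to 1357 by the rule, 374 to 2687 by adjusted p, 71 to 234 held and 42 to 300 by the F test. Held probes cannot be counted without control replicate 3, which is slide 2's only control. Replicate numbers did not pair the arrays (18 same-numbered pairs, correlation of deviations -0.31 to 0.14, and 1 of 12 arrays correlated best with its own number), and with the replicate block 349 passed the adjusted p and 50 the F test. The cause of these moves was not tested except where stated. Of 74 named genes past the adjusted p, none reversed, 20 kept the call in every alternative and 44 lost it without control replicate 3. Signs turned in genes that had missed the adjusted p. Quantile normalization gave -0.0446 for Cav1 and 0.0707 for Hba-a1, and leaving out arrays gave -0.0685 to 0.0539 for Cxcl16, -0.0615 to 0.0274 for Tiparp, -0.13 to 0.13 for Nqo1, -0.10 to 0.10 for Col3a1, -0.16 to 0.22 for Itgb1, -0.35 to 0.17 for Aldh1a1, -0.20 to 0.0505 for Tppp3, -0.69 to 0.36 for Rsph1, -0.14 to 0.13 for Cav1, -0.36 to 0.0168 for Actg2, -0.30 to 0.12 for Pi16, -0.0633 to 0.13 for Hbb-b1, -0.36 to 0.0442 for Hba-a1 and -1.08 to 0.65 for Cidea.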
